A study of Arabidopsis thaliana with 15 samples.

Results

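The 5 MYB3R genes of Arabidopsis thaliana, MYB3R1 to MYB3R5, were examined as places where 2 members of the same family, MYB3R1 and MYB3R4, bind chromatin. The genes were taken by locus identifier: AT4G32730 (MYB3R1), AT4G00540 (MYB3R2), AT3G09370 (MYB3R3), AT5G11510 (MYB3R4) and AT5G02320 (MYB3R5). They are 5 of 27444 nuclear protein-coding genes in the reference table. A gene was said to have a peak in a library when the summit of a deposited peak lay inside the gene or no more than 1000 bp beyond either of its ends.

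Plants with a GFP fusion under the promoter of the fused gene were used for ChIP-seq, in which chromatin bound by a protein is pulled down by an antibody, here against GFP, and its DNA is sequenced. All were labelled Col0, the common laboratory accession, and all material was dissected inflorescence meristem. The groups were GFP-MYB3R1 under pMYB3R1 (3 ChIP libraries and 3 input samples), GFP-MYB3R4 under pMYB3R4 (3 and 2) and GFP-MYB3R4mNES under pMYB3R4 (2 and 2). The labels do not spell out mNES (NES usually stands for nuclear export signal), and they give neither plant age nor the number of transgenic lines, nor whether replicates came from separate plants. P-values across libraries therefore measure only the spread between these samples. No untagged control was among the samples, and a peak list holds no expression values, so the tissue could not be checked against markers. Since the genotype labels name no mutation of the MYB3R genes, each line, as labelled, holds the endogenous gene besides the transgene, and reads from the 2 copies cannot be told apart in a peak list. Nor can binding in more cells of the meristem be told apart from stronger binding in each cell.

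MYB3R proteins carry 3 MYB repeats and regulate genes of the G2 and M phases, whose promoters often hold the mitosis-specific activator element. In Arabidopsis, MYB3R1 and MYB3R4 are known as activators of these genes in dividing cells. MYB3R3 and MYB3R5 are known as repressors that keep them silent outside mitosis, and MYB3R1 also takes part in repression, in complexes of the DREAM type that hold E2F, RBR1, TSO1-like and ALY proteins.

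The lists differed greatly in length, from 7089 to 19655 nuclear peaks for MYB3R1, 456 to 2717 for MYB3R4, and 227 and 256 for MYB3R4mNES. Read depth is unknown, so a gene without a peak is one not called in that list. A pair of features of the files bears on the labels. The peak names inside the list labelled MYB3R4mNES replicate 1 carry the name of the file of MYB3R4 replicate 3. These 2 lists shared 0 peaks with the same start and end, so they are not copies. Of the peaks of MYB3R4mNES replicate 1, 88.1% overlapped a peak of MYB3R4 replicate 3, 89.9% one of MYB3R4 replicate 2 and 75.8% one of MYB3R4mNES replicate 2. The shares for MYB3R4mNES replicate 2 were alike: 86.3% with MYB3R4 replicate 3, 89.5% with MYB3R4 replicate 2 and 64.5% with MYB3R4mNES replicate 1. The lists also differ in length, so these shares do not settle the label. The libraries labelled MYB3R4 replicates 1 and 2 had peaks over 91.2% and 100% of the MYB3R1 gene, although their labels name no MYB3R1 transgene, and MYB3R1 replicates 1 and 2 had peaks over 86.0% and 85.5% of the MYB3R4 gene. Whether ChIP or input samples of different lines were paired or mixed was not tested, and the fold enrichments at these 2 genes carry that limit. Of the 786 nuclear peaks of MYB3R4 replicate 1, 35.9%, 31.0% and 33.8% overlapped a peak of MYB3R1 replicates 1, 2 and 3. For the 2717 of MYB3R4 replicate 2 the shares were 81.2%, 95.8% and 54.95%. For the 456 of MYB3R4 replicate 3 they were 62.5%, 50.4% and 61.4%, and 91.7% of them overlapped a peak of MYB3R4 replicate 2. The MYB3R1 lists are long, and that of replicate 2 had a peak at 69.1% of all genes. The number of MYB3R genes with a peak is given with and without MYB3R4 replicates 1 and 2. The summit difference at MYB3R1 rests on these 2 MYB3R4 libraries, so it is given without each in turn but not without both. MYB3R1 replicates 1 and 2 are left out together only where replicate 3 of MYB3R1 is compared with replicate 3 of MYB3R4.

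In the MYB3R1 libraries, all 5 MYB3R genes had a peak in replicates 1 and 2, and 4 had one in replicate 3, where MYB3R5 had none. The MYB3R4 libraries had peaks at 2 of the 5 genes in replicate 1 (MYB3R1 and MYB3R4), at 1 in replicate 2 (MYB3R1) and at 0 in replicate 3. MYB3R4mNES replicate 1 had a peak at 1 gene (MYB3R1) and replicate 2 at 0. By the same rule, the share of all nuclear protein-coding genes with a peak was 46.5%, 69.1% and 32.8% in MYB3R1 replicates 1, 2 and 3. It was 1.53%, 9.86% and 1.47% in the MYB3R4 replicates. In the MYB3R4mNES replicates the shares were 0.7% and 0.86%. A peak at a given gene was thus common in the MYB3R1 lists and rare in the others. In every MYB3R1 library 4 of the 5 genes had a peak, against 30.2% of all genes, and in at least 2 MYB3R1 libraries all 5 had one, against 48.2%. The MYB3R1 gene had a peak in 2 MYB3R4 libraries, and 1.63% of all genes had one in at least 2. None of the 5 had one in all 3, which 0.736% of all genes had. The rule takes in the whole gene, so a longer gene can meet it more easily. All 5 genes are at least 2986 bp long, as are 7083 of the 27444 genes. The shares of all genes, here and below, are not matched for length.

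**Figure D1:**
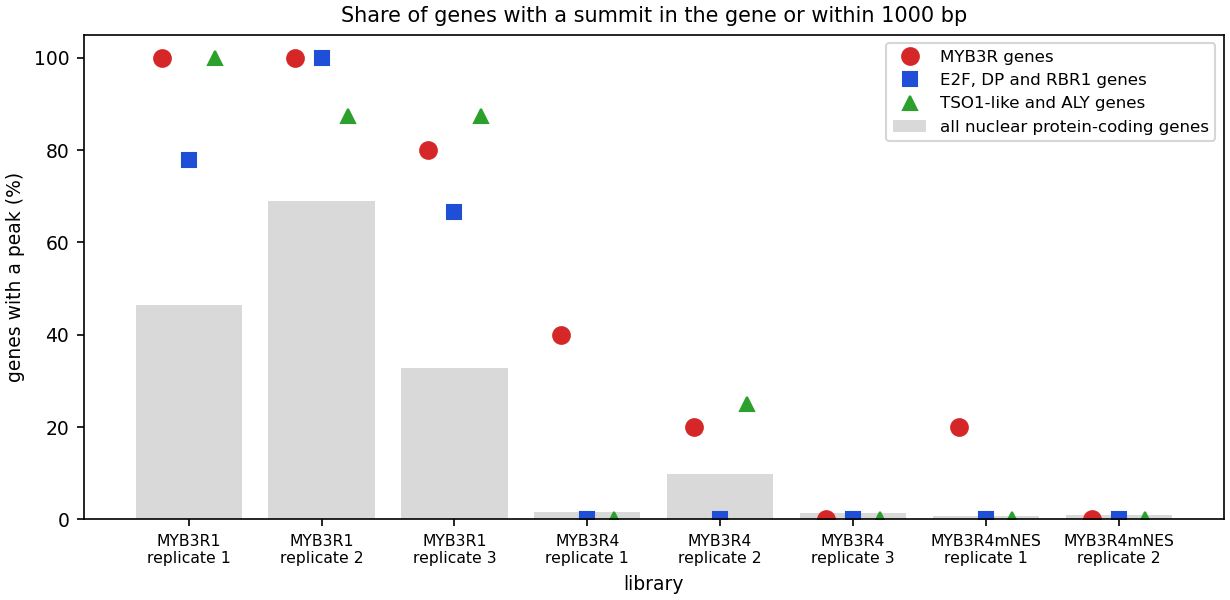
The percent of genes with a peak summit in the gene or within 1000 bp is shown for each ChIP library; bars stand for all nuclear protein-coding genes, circles for the 5 MYB3R genes, squares for 9 E2F, DP and RBR1 genes and triangles for 8 TSO1-like and ALY genes. All 3 lists of genes lie above the bar in the 3 MYB3R1 libraries, and in 3 of the other 5 libraries the MYB3R circle lies above the bar.

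The number of MYB3R genes with a peak was 4.67 ± 0.577 (SD, n = 3) in MYB3R1, 1.0 ± 1.0 (SD, n = 3) in MYB3R4 and 0.5 ± 0.707 (SD, n = 2) in MYB3R4mNES libraries. The difference between MYB3R1 and MYB3R4 was 3.67 genes. It was 4.67 genes when the 2 MYB3R4 libraries with peaks over most of the MYB3R1 gene were left out. That setting keeps only replicate 3 of MYB3R4. Its libraries were dropped for peaks at a counted gene, which by itself favours a larger difference. The difference was 0 genes when each list was shortened to its 227 strongest peaks by -log10 p. At that length MYB3R2, MYB3R3 and MYB3R5 had a peak in 0 libraries, whereas the MYB3R1 gene had one in 5 of the 8 and the MYB3R4 gene in 2. This depends on ranking by -log10 p. In MYB3R1 replicates 1 and 3 the peak at the MYB3R1 gene ranked 210th and 185th by -log10 p, but 7876th and 2606th by fold enrichment. The count is a description, because the genes were chosen as a family, and it carries no test.

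MYB3R3 and MYB3R2 had peaks in the 3 MYB3R1 libraries and in 0 of the other 5. Of all genes, 23.5% showed this pattern. At MYB3R3, which encodes a repressor of mitotic genes, the fold enrichment at the summit was 6.78, 6.26 and 2.82 in MYB3R1 replicates 1, 2 and 3. The fold enrichments are the authors' values for each peak and are used here within a list. They placed the MYB3R3 peak at the 96.5th, 97.1st and 81.2nd percentile of the nuclear peaks of its list, so replicate 3 ranked it lowest. The summits lay 187, 183 and 66 bp outside the lower-coordinate end of the gene, with replicate 1 at position 2879166 of chromosome 3 (TAIR10). They fell within 121 bp of each other, and within 4 bp without replicate 3. The gene AT3G09360 on that side was farther away, by 575 to 696 bp. The reference table gives no strand, so ends are named here by coordinate and not as start or end of transcription.

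At MYB3R2, a family member whose role is less well described, MYB3R1 replicates 1, 2 and 3 gave fold enrichments of 4.58, 4.46 and 2.65. These were the 86.1st, 87.6th and 75.8th percentiles of their lists. The summits lay within 78 bp of each other, 686, 753 and 675 bp outside the lower-coordinate end (position 233911 of chromosome 4 in replicate 1). All 3 were nearer to the neighbouring gene AT4G00530, at 259, 192 and 270 bp. With a window of 500 bp, or with each summit given only to its nearest gene, MYB3R2 had a peak in 0 libraries.

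MYB3R5, the other known repressor, had a peak in MYB3R1 replicates 1 and 2 only, with fold enrichments of 3.05 and 3.22 at the 52.1st and 65.0th percentile. The summits lay 56 and 76 bp outside the higher-coordinate end of the gene, 20 bp apart (position 486529 of chromosome 5 in replicate 1). Of all genes, 39.2% had a peak in at least 2 MYB3R1 libraries and in none of the other 5. The peak at MYB3R5 was the weakest of the 3 in rank, and only replicate 2 kept it at a -log10 q of 10 or more.

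**Figure D2:**
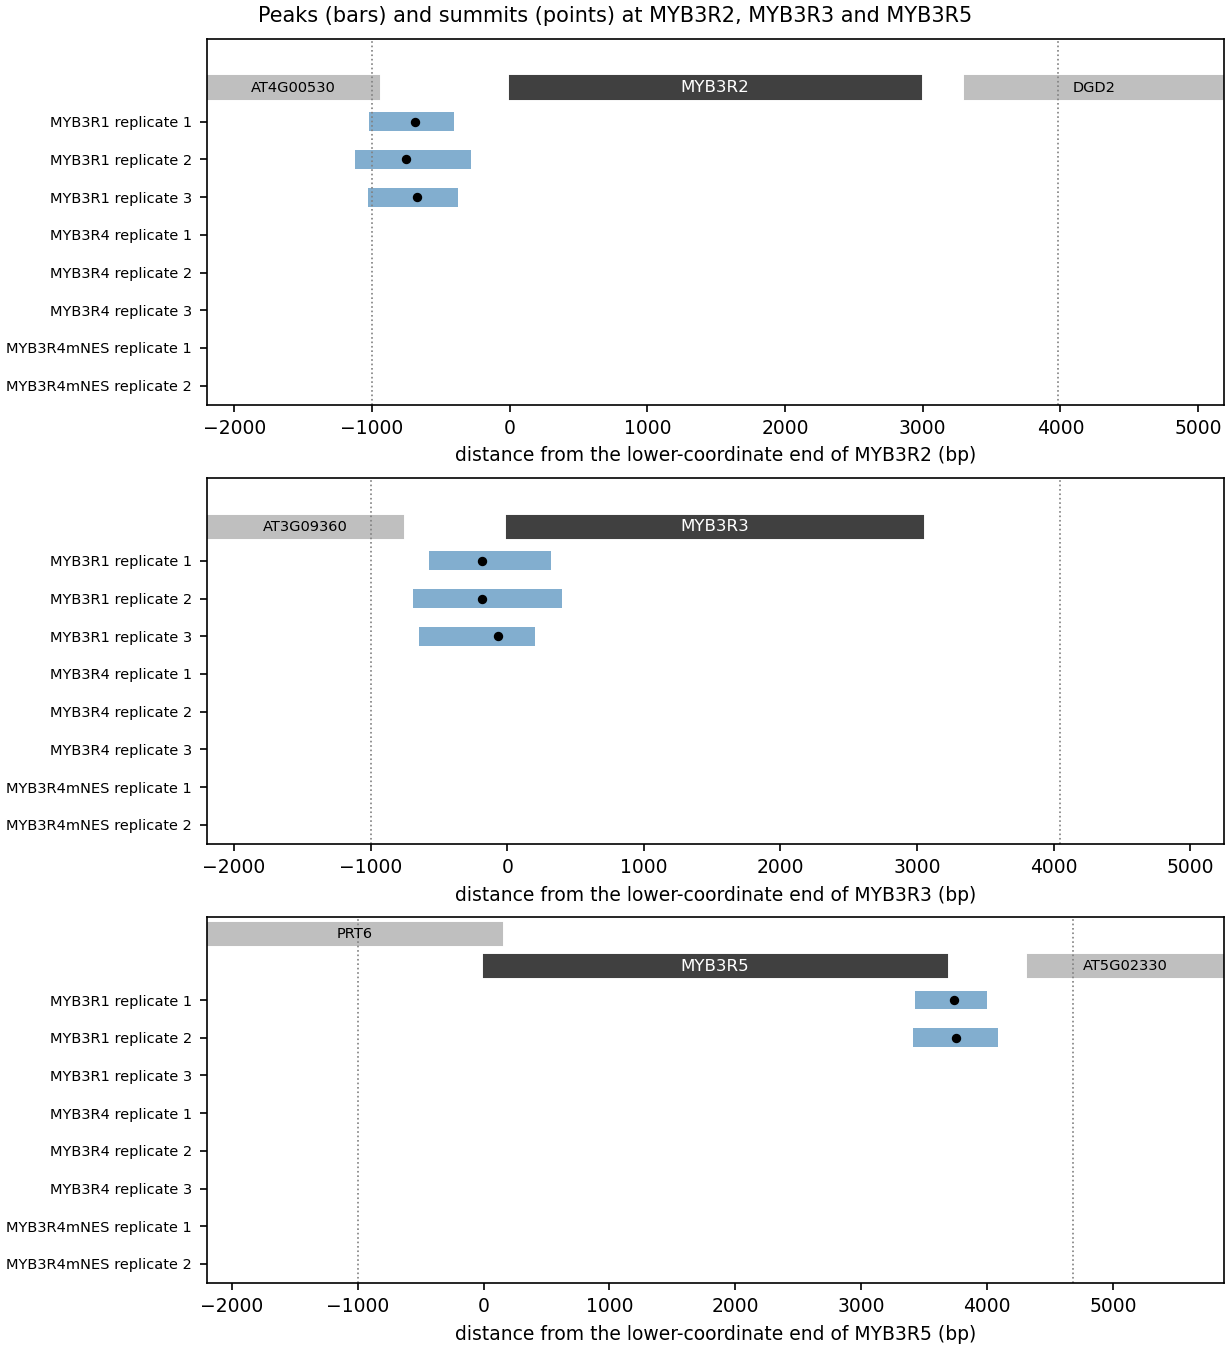
Peaks at MYB3R2, MYB3R3 and MYB3R5 are drawn to scale by distance in bp from the lower-coordinate gene end, with 1 row per ChIP library, bars for peaks, points for summits, dark boxes for the gene, grey boxes for neighbouring genes and dotted lines at 1000 bp outside the gene. Only MYB3R1 libraries have peaks, and their summits agree within 78, 121 and 20 bp at the 3 genes.

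The MYB3R4 gene, which encodes an activator of mitotic genes, had the MYB3R1 peaks of highest fold enrichment in the family, though by -log10 p those at the MYB3R1 gene were higher in replicates 1 and 3 (83.5 and 70.1, against 63.0 in both). Its summit was enriched 7.33-fold, 7.25-fold and 5.09-fold in MYB3R1 replicates 1, 2 and 3, at the 97.2nd, 98.5th and 97.1st percentile. Their summits lay 32 bp inside the lower-coordinate end in replicate 1 (position 3679780 of chromosome 5) and 76 and 77 bp outside it in replicates 2 and 3. Replicates 2 and 3 thus differed by 1 bp. The neighbour AT5G11500 ends 10 bp from MYB3R4, and the summits of replicates 2 and 3 lay inside that neighbour, so the peak may be counted for either gene.

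In MYB3R1 replicates 1 and 2 the MYB3R4 gene carried further peaks along its body. Replicate 1 had a peak of 3562 bp inside the gene, with a fold enrichment of 3.11, which was the 10th widest of 11478 nuclear peaks (median width 615 bp). Replicate 2 had its main peak extended to 3973 bp, and 2 more peaks with fold enrichments of 1.5 and 1.71. Together the peaks covered 86.0% of the gene in replicate 1 and 85.5% in replicate 2, but 11.7% in replicate 3. Among genes of 2986 bp or more, the length of the shortest MYB3R gene, 0.296% were at least 50% covered by peaks in replicate 1. The shares were 1.82% in replicate 2 and 0.212% in replicate 3. The covered stretch began 1466 and 1559 bp below the gene and ended 476 and 508 bp above it, so its edges in the 2 libraries differed by 93 and 32 bp.

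In the MYB3R4 libraries the MYB3R4 gene had peaks of low fold enrichment. Replicate 1 had 2, with fold enrichments of 1.24 and 1.36, the 0.509th and 8.27th percentile of its list. The second spanned 4768 bp, from inside the gene to 484 bp above it, and its higher edge lay within 32 bp of those of MYB3R1 replicates 1 and 2. Replicate 2 had no peak at MYB3R4. Replicate 3 had 1 just outside the window, 1206 bp below the gene, with a fold enrichment of 1.43, and the MYB3R4mNES libraries had none. These plants carry a MYB3R4 transgene, and its part in these values was not tested.

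Summit positions at the MYB3R4 gene rested on 1 MYB3R4 library. The mean of the MYB3R1 libraries was -40.3 bp from the lower-coordinate end (negative outside the gene, n = 3). MYB3R4 replicate 1 had a summit 1321 bp inside the gene, at the peak of 1.36-fold, and one 499 bp outside the lower end, at the peak of 1.24-fold. Against the first, the difference was -1361 bp. With 1 MYB3R4 library this difference has no test. With a window of 2000 bp, which adds replicate 3, the MYB3R4 mean differed from the MYB3R1 mean by -97.8 bp (MYB3R1 minus MYB3R4, exact permutation test, two-sided, p = 0.80). That MYB3R4 mean averages a summit 1321 bp inside the gene in replicate 1 and one 1206 bp outside its lower end in replicate 3. Neither lay near the MYB3R1 summits, so the small difference does not mean that the positions were alike.

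The MYB3R1 gene had a peak in 6 of the 8 libraries, the most of the family, and its peaks differed in shape between the groups. In MYB3R1 replicates 1, 2 and 3 a single peak lay at the lower-coordinate end, with summits 187, 79 and 242 bp inside the gene, at positions 15790320, 15790212 and 15790375 of chromosome 4. The neighbour La1 ends 137 bp away on that side. Peaks covered 10.6%, 8.64% and 12.2% of the gene. Fold enrichments were 2.68, 1.37 and 2.38, at the 31.4th, 0.0102nd and 63.3rd percentile, so that in replicate 2 it ranked 19654th of 19655 peaks by fold.

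These peaks had far smaller p-values than other peaks of equal fold enrichment in the same list, a comparison chosen after seeing the values. In MYB3R1 replicate 1 the -log10 p was 83.5, and the 1941 other peaks within 5% of its fold enrichment had a median of 8.76, a ratio of 9.54. In replicate 2 the -log10 p was 14.9 against a median of 2.86 over 18 such peaks, a ratio of 5.19. In replicate 3 it was 70.1 against 11.8 over 1063 peaks, a ratio of 5.92. None of the peaks of equal fold enrichment had a higher -log10 p. A ratio of at least 5 was reached by 11 of 11380 peaks in replicate 1, by 0 of 19640 in replicate 2 and by 26 of 7023 in replicate 3, counted over peaks with at least 20 others of equal fold, which leaves out the replicate 2 peak at MYB3R1.

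For a given fold enrichment, a smaller p-value goes with more reads in both the ChIP and the background. The peaks at the other 4 MYB3R genes in the MYB3R1 lists had ratios between 0.969 and 1.02. The MYB3R1 libraries come from plants that carry a MYB3R1 transgene, and the share of these reads that came from it was not tested.

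**Figure D3:**
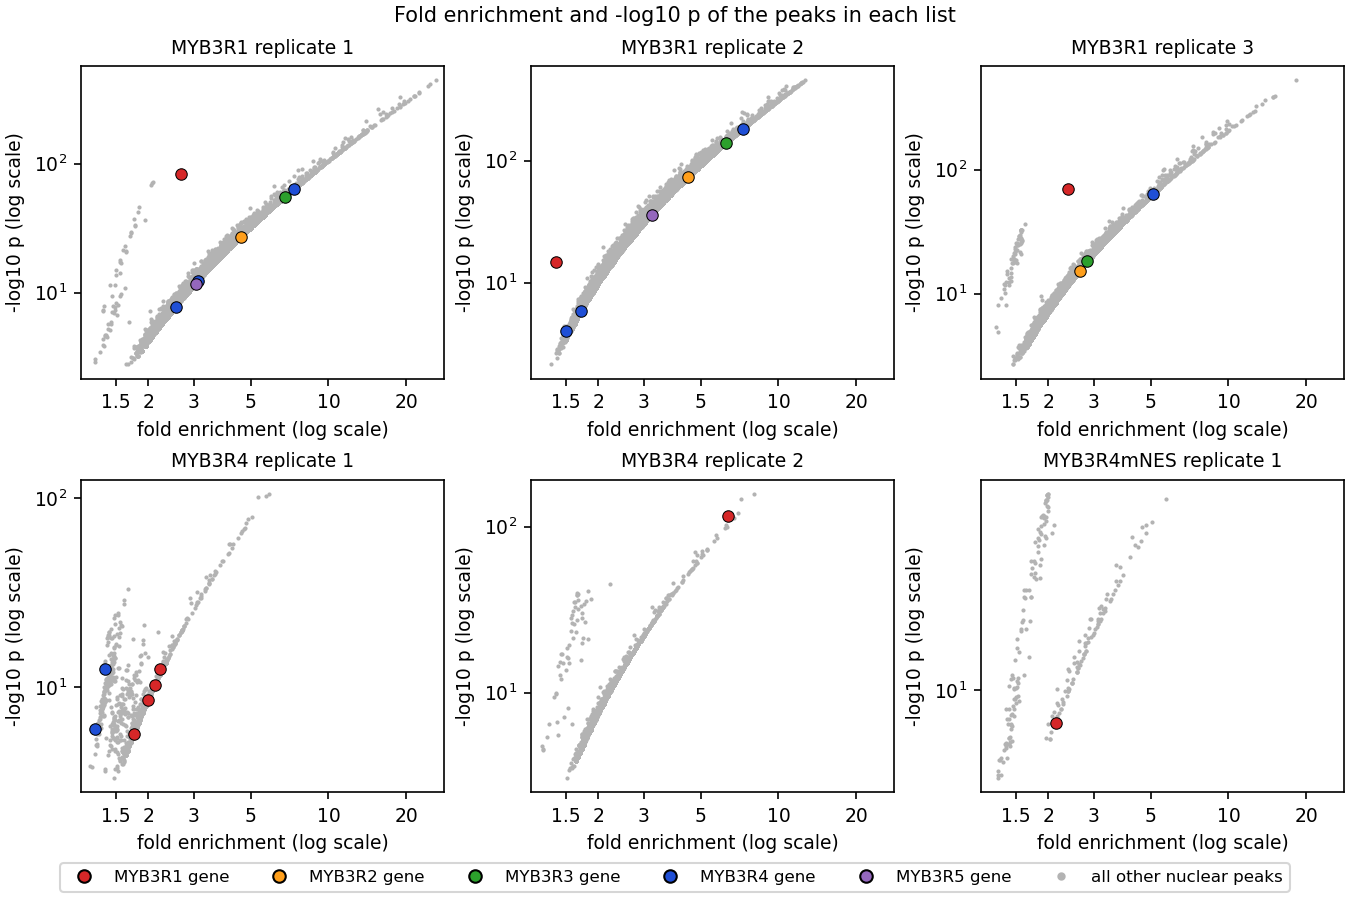
Fold enrichment over background is plotted against -log10 p for every nuclear peak of 6 lists, both on log scales, with grey points for all peaks and coloured points for peaks at the 5 MYB3R genes. In the 3 MYB3R1 lists the point of the MYB3R1 gene stands above the main band of points and, in replicates 1 and 3, apart from the grey points at low fold, with -log10 p values of 83.5, 14.9 and 70.1, while MYB3R2 to MYB3R5 lie in the band; in MYB3R4 replicate 1 the 2 peaks of the MYB3R4 gene lie at the left, at fold enrichments of 1.24 and 1.36, and the 4 of the MYB3R1 gene lie in the main band.

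In the libraries labelled MYB3R4 the MYB3R1 gene looked different. Replicate 2 had a single peak of 8453 bp, from position 15788365 to 15796817 of chromosome 4, that covered the whole gene and reached 1768 bp below and 703 bp above it. Its fold enrichment of 6.34 ranked 5th and its width 10th among the 2717 nuclear peaks, whose median width was 559 bp. Its summit lay 1352 bp inside the gene.

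Replicate 1 had 4 peaks at the MYB3R1 gene and a further one 1179 bp below it. Their summits lay 6, 769, 2456 and 6090 bp from the lower-coordinate end, with fold enrichments of 2.0, 1.76, 2.12 and 2.22. The last of these, the highest by fold, lay 109 bp beyond the higher-coordinate end of the gene, inside AT4G32750. The 4 peaks covered 91.2% of the gene, and the further one ended below it and covered none. The lowest of the 4 reached 320 bp below the gene, against 1768 bp in replicate 2. With the further peak counted, across a gap, the outer edges of this stretch lay 335 and 344 bp inside those of the replicate 2 peak. Relative to peaks of equal fold, the -log10 p of the 4 peaks was 0.912 to 1.02. For the 2 peaks at the MYB3R4 gene in the same library this ratio was 0.981 and 1.33. At similar -log10 p, these 2 had a lower fold enrichment than peaks at the MYB3R1 gene. They had 1.24 at 6.04 and 1.36 at 12.5, against 1.76 at 5.64 and 2.22 at 12.5.

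Such coverage, also measured after seeing the peaks, was rare. Peaks covered at least 50% of 11 of 7083 genes of 2986 bp or more (0.155%) in MYB3R4 replicate 1, and MYB3R1 and MYB3R4 were 2 of them. This limit is the length of the shortest MYB3R gene and is not matched to MYB3R1 (5982 bp) or MYB3R4 (5137 bp). In replicate 2 it was also 11 genes (0.155%), with MYB3R1 among them. In replicate 3 (0.0706%) and in the MYB3R4mNES libraries (0.0282% each) no MYB3R gene was covered this way. MYB3R1 and MYB3R4, the 2 genes used for the transgenes, were the only MYB3R genes with at least 50% coverage in any of the 8 libraries. The MYB3R4 gene was covered this way in MYB3R1 replicates 1 and 2 and in MYB3R4 replicate 1, and the MYB3R1 gene in MYB3R4 replicates 1 and 2. The part of transgene copies in these stretches was not tested.

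MYB3R4 replicate 3 had no peak at the MYB3R1 gene, nor had MYB3R4mNES replicate 2. MYB3R4mNES replicate 1 had 1 peak of 535 bp with a fold enrichment of 2.13 and a -log10 q of 4.65. Its summit lay 812 bp below the gene, inside La1, and was no longer counted at a -log10 q of 5 or more, with a window of 500 bp, or when given to the nearest gene.

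**Figure D4:**
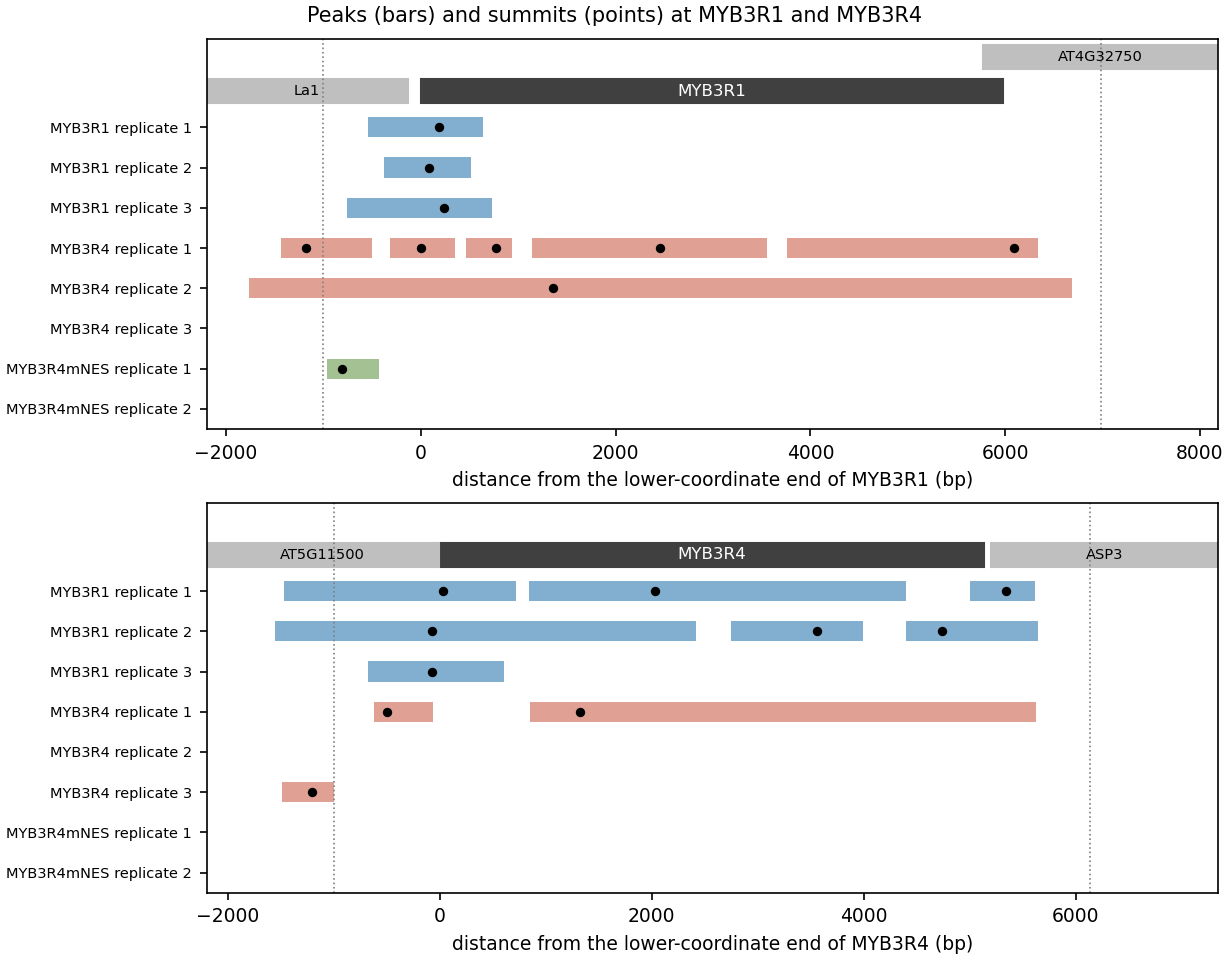
Peaks at the MYB3R1 gene (top) and the MYB3R4 gene (bottom) are drawn to scale by distance in bp from the lower-coordinate gene end, with 1 row per ChIP library, bars for peaks, points for summits, dark boxes for the gene, grey boxes for neighbouring genes and dotted lines at 1000 bp outside the gene. MYB3R4 replicates 1 and 2 cover 91.2% and 100% of the MYB3R1 gene, whereas the 3 MYB3R1 libraries have 1 peak each at its lower end; MYB3R1 replicates 1 and 2 and MYB3R4 replicate 1 cover 86.0%, 85.5% and 83.4% of the MYB3R4 gene.

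Where a library had several peaks, the summit of highest fold enrichment was compared. At the MYB3R1 gene these summits lay on average 169 bp from the lower-coordinate end in MYB3R1 libraries (n = 3) and 3721 bp from it in MYB3R4 libraries (n = 2), a difference of -3552 bp (exact permutation test, two-sided, p = 0.20, the smallest value that 3 libraries against 2 allow). The MYB3R4 summits were at 1352 bp in replicate 2 and at 6090 bp in replicate 1, where the chosen peak lies 109 bp beyond the gene. The difference was -1183 bp without MYB3R4 replicate 1 and -5921 bp without replicate 2, so its size depends on the library kept. It holds for the chosen summits only: MYB3R4 replicate 1 also had a summit 6 bp from the lower end, below the 3 MYB3R1 summits, and its peak there overlapped theirs. The MYB3R4mNES summit lay 981 bp below the MYB3R1 mean.

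Presence of a peak was compared gene by gene over libraries. For MYB3R2 and MYB3R3, 3 of 3 MYB3R1 and 0 of 3 MYB3R4 libraries had a peak (exact permutation test, two-sided, p = 0.10, adjusted p = 0.50 over 10 tests by Benjamini-Hochberg), where 0.10 is the smallest value 3 libraries against 3 can give. For MYB3R4 it was 3 of 3 against 1 of 3 and for MYB3R5 2 of 3 against 0 of 3 (exact permutation p = 0.40 each, adjusted 1.0). For the MYB3R1 gene it was 3 of 3 against 2 of 3 (exact permutation p = 1.0). No gene could be called between MYB3R4 and MYB3R4mNES either, with exact permutation p = 1.0 for all 5. Within the libraries of the first file naming style (replicates 1 and 2 of MYB3R1 and MYB3R4), the difference in number of MYB3R genes was 3.5, and within the second (replicate 3 of each) it was 4. Both MYB3R4mNES libraries have the second style, which MYB3R4 has in replicate 3 only. Over all libraries, a difference between MYB3R4 and MYB3R4mNES therefore cannot be told apart from one between the styles.

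Genes whose peaks ranked most like those of each MYB3R gene were sought among all nuclear protein-coding genes, by the distance between percentiles of the best peak over the 8 libraries, with 0 where there was no peak. The nearest to MYB3R4 was CHR17 (AT5G18620), a chromatin remodeller of the ISWI type, at percentiles of 97.2, 98.9 and 97.1 in the MYB3R1 libraries (distance 8.28); AT5G18630 shares its values, and AT4G26960 followed. The nearest to MYB3R3 were VEL3 (AT2G18870) and AT2G18876, which share their values, and RECQI1 (AT3G05740), a RecQ helicase, at distances of 1.19 and 1.34. TUA5 (AT5G19780), an alpha-tubulin, was nearest to MYB3R2 (distance 1.01), followed by AT4G09630 and AT2G36970.

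AT3G49650 had the same percentiles as MYB3R5 (distance 0), and HOL1 (AT2G43910) and HOL2 (AT2G43920) followed at 0.0763. The MYB3R1 gene had no close counterpart. Its nearest gene, ARF2 (AT5G62000), an auxin response factor, lay at a distance of 90.4, with AT1G75090 at 90.8 and AT2G17960 at 100.3.

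Genes for partners of MYB3R proteins in DREAM complexes were counted by the same rule. Of 9 E2F, DP and RBR1 genes, 7, 9 and 6 had a peak in MYB3R1 replicates 1, 2 and 3, and 0 in any other library. The shares of all genes were 46.5%, 69.1% and 32.8% in these and 0.7% to 9.86% in the others, where 0 of 9 is near the background. RBR1 (AT3G12280), the retinoblastoma-related repressor of the cell cycle, had fold enrichments of 8.06, 7.06 and 5.37. Those of ATE2F2 (AT1G47870), also called E2FC, were 5.37, 5.51 and 4.16. Those of E2F3 (AT2G36010), also called E2FA, were 3.30, 4.18 and 2.10, and those of DEL3 (AT3G01330), an atypical E2F, were 4.40, 5.30 and 2.20.

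Of 8 TSO1-like and ALY genes, 8, 7 and 7 had a peak in the MYB3R1 libraries and 2 had one in MYB3R4 replicate 2, against 46.5%, 69.1%, 32.8% and 9.86% of all genes in these 4 libraries. These were AT4G29000, a TSO1-like gene (8.36, 7.24 and 4.85 in MYB3R1 replicates 1, 2 and 3, 1.95 in MYB3R4 replicate 2), and ALY2 (AT3G05380; 4.82, 4.90 and 2.67, against 1.78). AT2G20110 and ALY3 (AT3G21430) had peaks in the 3 MYB3R1 libraries and in none of the other 5. Among more distant MYB-repeat genes, CDC5 (AT1G09770) had a peak in 3 and MYB4R1 (AT3G18100) in 1 of the MYB3R1 libraries, with none elsewhere; 1, 2 and 1 of 2 genes in replicates 1, 2 and 3 is near the shares of all genes.

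For comparison, 10 genes of mitosis and cytokinesis were taken because they are known MYB3R targets, so peaks at them were likely beforehand. All 10 had peaks in the 3 MYB3R1 libraries, against 30.2% of all genes. In every MYB3R4 and MYB3R4mNES library 9 of the 10 had a peak. Of all genes, 0.736% had one in every MYB3R4 library and 0.496% in every MYB3R4mNES library. CDC20.1 and CDC20.2 had equal fold enrichment and peak width in each of these libraries, so they may share the same peak. Fold enrichments of TPX2 (AT1G03780), a spindle protein, were 26.1, 12.6 and 15.2 in MYB3R1 and 3.45, 4.26 and 5.07 in MYB3R4 replicates 1, 2 and 3. The highest fold enrichment of a MYB3R1 peak in the MYB3R family, that at MYB3R4, was 7.33, and MYB3R2, MYB3R3 and MYB3R5 had no peak in the libraries of MYB3R4 or MYB3R4mNES. CYCB1;1 (AT4G37490), a B-type cyclin, was the gene of the 10 with peaks in MYB3R1 libraries only, at 10.4, 8.57 and 6.35, and is named here after its values were seen.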

How the data were processed

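The members, gene lists and tests were chosen with earlier results of these data known; the measures of gene coverage and of -log10 p at equal fold enrichment were added after seeing the peaks. The authors deposited 1 list of peaks per ChIP library in narrowPeak format, called against input after extension of reads to 400 bp, per the file names. FastQC, Trimmomatic, Bowtie2, Picard and the build TAIR10 come from the submitters' processing notes, without versions; the peak caller and the input used for each library are not given in the sources used here. The deposited columns hold a fold enrichment (a ratio over background at the summit), the -log10 p-value, the -log10 q-value, a score that is 10 times the -log10 q, and the distance of the summit from the peak start. Replicates were not pooled. Per the labels, libraries were prepared by 2 methods and sequenced in 2 ways, without saying which; the 2 styles of file name were used as a split.

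Positions are 1-based. Organelle peaks were left out. Gene ends came from a RefSeq table of TAIR10.1, used for distances only; 17.0% to 62.4% of summits lay within 200 bp of a gene end in place and 12.3% to 20.3% with genes shifted by 10000 bp. Where a gene had several peaks, that with the highest fold enrichment was used. All 5 genes are described, with up to 4 genes per pathway list and the 3 genes most alike. Exact permutation tests over libraries were two-sided. Assignment of peaks was tested on simulated lists. Python 3.11.15, pandas 2.3.3, NumPy 2.4.6 and Matplotlib 3.10.9 were used. Depth is unknown, so no interval or detection limit is given. No sequence was at hand, so motifs were not analysed here.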

Additional observations from a re-analysis of the deposited data

How the results depend on the processing

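Alternatives were windows of 500 and 2000 bp, any overlap, the nearest gene only, -log10 q of at least 5 or 10, equal list length, the peak with the highest -log10 p, 1 naming style, each library left out, and the replicate block. The number of MYB3R genes with a peak, MYB3R1 minus MYB3R4, was 3.67. It was 2.67 with 500 bp, 2.33 with the nearest gene and 0 at equal list length. Without the libraries whose peaks cover the MYB3R1 gene, a setting chosen after seeing the data that keeps only MYB3R4 replicate 3, it was 4.67. For MYB3R4 minus MYB3R4mNES it was 0.5, with -0.5 in the second naming style and 1.5 without MYB3R4 replicate 3 and MYB3R4mNES replicate 1, also chosen after seeing the data. The difference in the share of libraries with a peak at the MYB3R1 gene between these 2 groups was 0.167, and turned to -0.5 in the second naming style; with a library left out it ranged from -0.333 to 0.667. Within MYB3R1 libraries, summit ranges with a library left out were 55 to 163 bp at MYB3R1, 11 to 78 at MYB3R2, 4 to 121 at MYB3R3 and 1 to 109 at MYB3R4. The summit difference at MYB3R4 was -1361 bp and -97.8 bp with 2000 bp, where the MYB3R4 summits lay on opposite sides of the lower gene end. At MYB3R1 it was -3552 bp, and -5921 to -1183 bp with a library left out. The share of libraries with a peak, MYB3R1 minus MYB3R4, fell to 0 for all 5 genes at equal list length, for MYB3R2 (1.0) also with 500 bp and with the nearest gene, for MYB3R5 (0.667) in the second naming style and for the MYB3R1 gene (0.333) in the first; with a library left out, the last was 0 to 0.5. For the MYB3R4 gene, MYB3R4 minus MYB3R4mNES (0.333), it was 0 in the second naming style and at -log10 q of 10 or more, and 0 to 0.5 with a library left out. In all, 25 values moved or fell to 0 and 3 changed sign. No test could pass 0.05 at these sizes, which says nothing on stability. The causes were not tested.

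Same-numbered MYB3R1 and MYB3R4 libraries had correlations of deviations over genes of -0.0957, -0.0223 and 0.0828, and those of other numbers ran from -0.120 to 0.128. For MYB3R4 and MYB3R4mNES the same-numbered values were 0.04995 and 0.0371, and the others ran from -0.04995 to 0.0128. Deviations from the mean of so few libraries depend on each other, so these values do not settle whether the numbers pair the libraries. With the replicate block the differences were 3.67 and 1.0 genes (MYB3R1 minus MYB3R4, and MYB3R4 minus MYB3R4mNES), and the smallest possible p was 0.25.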
